A study of Mus musculus with 12 samples.

Results

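Srebf1, the gene of the transcription factor SREBP-1, and 9 genes that make, lengthen, desaturate or activate fatty acids were followed by RNA-seq through 4 groups of cultured mouse kidney cells. The 9 enzyme genes were Acly, Acaca, Fasn, Elovl6, Scd1, Scd2, Fads1, Fads2 and Acsl3. The 10 genes were taken by symbol as a list of the pathway, with no threshold on their values but with earlier results of these data known, out of 25514 genes that had counts. Each gene was read from 1 transcript, the one with the most counts over the 12 libraries. All 10 were among the 12971 genes that passed the filter on low counts and were tested. The cells were PT cells, that is proximal tubule cells of the kidney, isolated from male mice with floxed Tgfbr2 alleles, and every library carried the H2ts6 allele of the Immorto-mouse, a temperature-sensitive T antigen that lets cells divide at 33 °C. Tgfbr2 encodes the type II TGF-β receptor, TβRII. The cells labelled H2ts6;Tgfbr2fl/fl are called TβRII flox/flox PT cells, or flox/flox cells for short. Those labelled H2ts6;Tgfbr2-/- are called TβRII-/- cells and were obtained from floxed cells with adenoviral Cre in culture. Each genotype had 3 untreated libraries and 3 libraries from cells given H2O2 for 24 h. Cells were moved to 37 °C for 5 days before use. Untreated cells stayed in complete medium with 2.5% serum, insulin and thyroid hormone, whereas treated cells received H2O2 without serum, so H2O2 and serum withdrawal cannot be told apart. The study's methods also describe serum starvation before H2O2. The sample labels give the dose as 200 mM, while the study's methods give the same figure in μM. How many cell lines stood for each genotype is not stated, so loss of TβRII and any other difference between the cells of the genotypes cannot be told apart. The study's methods give independent repeats or biological replicates as the general rule for cell experiments, but neither they nor the labels say what the libraries of a group are, so p values measure the spread between these libraries, which may be technical.

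Fatty acids are built in the cytosol from acetyl-CoA, which ATP citrate lyase (Acly) cuts from citrate, acetyl-CoA carboxylase (Acaca) turns into malonyl-CoA and fatty acid synthase (Fasn) assembles into palmitate. Palmitate is lengthened by Elovl6 and desaturated by the stearoyl-CoA desaturases Scd1 and Scd2, while Fads1 and Fads2 desaturate polyunsaturated fatty acids and Acsl3 couples fatty acids to CoA so that they can enter complex lipids. SREBP-1 is made as a membrane protein that is carried from the endoplasmic reticulum and cut to release its active part, and insulin, LXR and low sterol are known to act at different steps of this route. PT cells in the kidney mainly burn fatty acids, and lipid build-up in them is known in injury.

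The sequence before the start sites was examined because these enzymes are textbook targets of SREBP, which acts together with the factors NF-Y, which binds CCAAT, and Sp1, which binds GC boxes. RefSeq promoters of GRCm38.p6, the build the authors used, were matched by symbol for 7 of the 10 genes and covered 9 start sites, 3 of them of Srebf1. Scd1, Scd2 and Fads1 had no entry. The 250 bases before 4 of these start sites are printed on the gene's own strand. Elovl6 and Acsl3 are shown because their changes with H2O2 differed between the genotypes, Fasn because its window held the most CCAAT boxes, and Srebf1 at start site 3 because that window held both motifs. Capitals mark CCAAT or its reverse complement ATTGG.
Fasn, chr11:120824548-120824797, minus strand: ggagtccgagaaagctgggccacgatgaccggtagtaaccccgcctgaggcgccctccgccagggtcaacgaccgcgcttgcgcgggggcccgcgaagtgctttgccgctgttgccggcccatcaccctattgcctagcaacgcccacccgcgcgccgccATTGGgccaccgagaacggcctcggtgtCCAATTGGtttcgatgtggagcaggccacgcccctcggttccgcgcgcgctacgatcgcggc
Srebf1, start site 3, chr11:60210472-60210721, minus strand: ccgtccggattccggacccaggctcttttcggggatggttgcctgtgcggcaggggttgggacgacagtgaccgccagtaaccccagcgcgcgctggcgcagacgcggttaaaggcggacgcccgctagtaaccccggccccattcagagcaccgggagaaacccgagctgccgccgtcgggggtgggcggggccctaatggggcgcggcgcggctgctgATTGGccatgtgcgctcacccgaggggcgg
Elovl6, chr3:129532136-129532385, plus strand: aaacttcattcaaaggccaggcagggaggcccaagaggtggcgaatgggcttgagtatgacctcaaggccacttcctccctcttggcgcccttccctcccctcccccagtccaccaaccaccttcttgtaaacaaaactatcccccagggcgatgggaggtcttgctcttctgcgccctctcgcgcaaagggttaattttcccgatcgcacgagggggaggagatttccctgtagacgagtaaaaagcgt
Acsl3, chr1:78657575-78657824, plus strand: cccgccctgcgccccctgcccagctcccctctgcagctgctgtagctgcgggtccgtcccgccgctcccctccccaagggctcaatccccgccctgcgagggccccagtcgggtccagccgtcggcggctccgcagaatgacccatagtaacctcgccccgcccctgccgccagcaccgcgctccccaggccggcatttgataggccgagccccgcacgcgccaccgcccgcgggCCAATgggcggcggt

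Motifs were counted on both strands in windows of 300 bases, which also hold the first 50 transcribed bases. CCAAT stood in 37.4% of the 32851 RefSeq promoters and in 5 of the 9 windows of these genes. Fasn held it 3 times, at 90, 62 and 59 bases before the start, the last 2 overlapping, and 3.37% of promoters held it 3 times or more. Acly, Acsl3 and start sites 1 and 3 of Srebf1 held it once each. The GC box GGGCGG, found in 35.7% of promoters, stood 5 times in the Acsl3 window and 4 times in that of Acly, and 5.49% of promoters held it 4 times or more. Srebf1 had 3 at start site 2 and 2 at start site 3, and Fads2 had 1. The windows of Elovl6 and Acaca held neither motif. The only Acaca window, chr11:84195188-84195487 on the plus strand, lies inside the gene, which starts at 84129635. It therefore does not show the sequence before the gene's first base. The sterol regulatory element of the LDL receptor gene, TCACCCCAC, and the E-box CACGTG were in none of the 9 windows, and in 0.551% and 7.15% of all promoters. These matches describe letters in the windows and were not tested for binding.

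Counts per library, with 1 transcript per gene, summed to between 15870155 and 20857618. Values are given as normalized counts, scaled to a library of 17351835 counts, and follow the order of replicates 1, 2 and 3, while signed values and values after ± are log2 fold changes and their SE unless said otherwise. Tgfbr2 was counted in every library, with means of 8393 ± 843 (SD, n = 3) in untreated flox/flox cells and 6605 ± 220 in untreated TβRII-/- cells, and of 13633 ± 328 and 7216 ± 97.7 with H2O2. These counts cover a whole transcript and do not read the deleted part separately, so they do not check the deletion. The study's methods state that the authors checked it by immunoblotting and RNA-seq. Of 16 proximal tubule markers, 5 (Slc34a1, Slc22a6, Slc22a8, Hnf4a and Miox) had at most 3 counts in every library. All 7 adipocyte markers had at most 3 counts in every library. Summed fibroblast markers, mostly counts of Postn, lay between 5586 and 6934 normalized counts in untreated flox/flox cells and between 190 and 241 in untreated TβRII-/- cells. With H2O2 these sums were between 2640 and 3059 and between 124 and 148. Of 8 fibroblast markers 4 were tested, of which Postn, Col1a1 and Pdgfrb were lower and Dcn was higher in untreated TβRII-/- cells at an adjusted p under 0.05 (edgeR). Summed epithelial markers lay between 5470.5 and 5900.0 in untreated flox/flox and between 15995 and 16766 in untreated TβRII-/- cells, and between 5351 and 5390 and between 12468 and 13196 with H2O2. All 6 were higher in untreated TβRII-/- cells at an adjusted p under 0.05 (edgeR). Among all genes tested, 33.3% were higher and 31.4% lower in untreated TβRII-/- cells by this rule. With H2O2 these shares were 35.1% and 31.3%. Epcam had a mean of 0.37 normalized counts in untreated flox/flox and 664 in untreated TβRII-/- cells, and Cdh1 had 1.80 and 1111. Of 5 endothelial markers only Kdr was tested, and the other 4 had group means of at most 2.95 normalized counts. The endothelial sum, mostly Kdr, went from between 127 and 138 to between 22.7 and 26.4 with H2O2 in flox/flox cells and from between 465 and 586 to between 39.3 and 65.6 in TβRII-/- cells. Summed proximal tubule markers lay between 44583 and 60264 in all groups, but the genes moved apart. Of 10 tested, 7 were lower and 2 higher in untreated TβRII-/- cells, with a median of -0.67, and 6 were lower and 4 higher with H2O2, with a median of -0.86. Lrp2, the gene of the endocytic receptor megalin, was lower (-0.65 ± 0.08, adjusted p = 1.86e-08, edgeR) and the kidney cadherin Cdh16 higher (1.06 ± 0.07, adjusted p = 2.73e-14) in untreated TβRII-/- cells. The marker genes named singly here were chosen after their values were seen. Summed immune markers lay between 394 and 608, and markers of thick limb, distal tubule and collecting duct, 5 of 7 of which had at most 3 counts in every library, between 11.6 and 64.6. The part of these differences in the results was not tested, and in bulk RNA fewer cells of a type cannot be told apart from less RNA per cell.

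Most of the 10 genes were lower in TβRII-/- cells and higher with H2O2, and the changes were mostly smaller than 1.5-fold. Without treatment, 8 of the 10 genes were lower in TβRII-/- cells than in flox/flox cells by edgeR's quasi-likelihood test with a Benjamini-Hochberg adjusted p under 0.05. Among all genes tested 31.4% were lower by the same rule. The median log2 fold change was -0.34 for the 10 genes and 0.01 for all genes. None of the 10 was past 1.5-fold with an unadjusted p under 0.01 by edgeR or DESeq2, 2 limits that 11.3% of all genes passed downwards. By edgeR, 9 had an unadjusted p under 0.05. So had at least the 8387 of all 12971 genes with an adjusted p under 0.05 in either direction. The libraries of the genotypes did not overlap for 7 of the 10 genes, as for 65.3% of all genes.

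With H2O2, all 10 genes were lower in TβRII-/- cells at an adjusted p under 0.05, against 31.3% of all genes, and their libraries did not overlap, as for 71.0% of all genes. The median was -0.48, against 0.02 over all genes. Scd2, Elovl6, Fads2 and Acsl3 were past the 1.5-fold limits, which 12.9% of all genes passed downwards.

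H2O2 in serum-free medium went with higher levels in both genotypes. In flox/flox cells 9 of the 10 genes rose, against 21.0% of all genes, with a median of 0.44 against 0.01. Elovl6, Acsl3 and Scd1 rose past the 1.5-fold limits, as did 5.13% of all genes. The treated libraries lay above the untreated ones for all 10 genes, and 47.4% of all genes had no overlap in one direction or the other. In TβRII-/- cells 8 of the 10 genes rose, against 20.5% of all genes, with a median of 0.36 against 0.02. Elovl6 alone among the 10 passed the 1.5-fold limits there, which 4.25% of all genes passed upwards. For 8 of the 10 genes, and for 52.1% of all genes, these libraries did not overlap. The untreated flox/flox libraries served both as controls for H2O2 and as the reference for genotype, so these comparisons share samples.

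**Figure D1:**
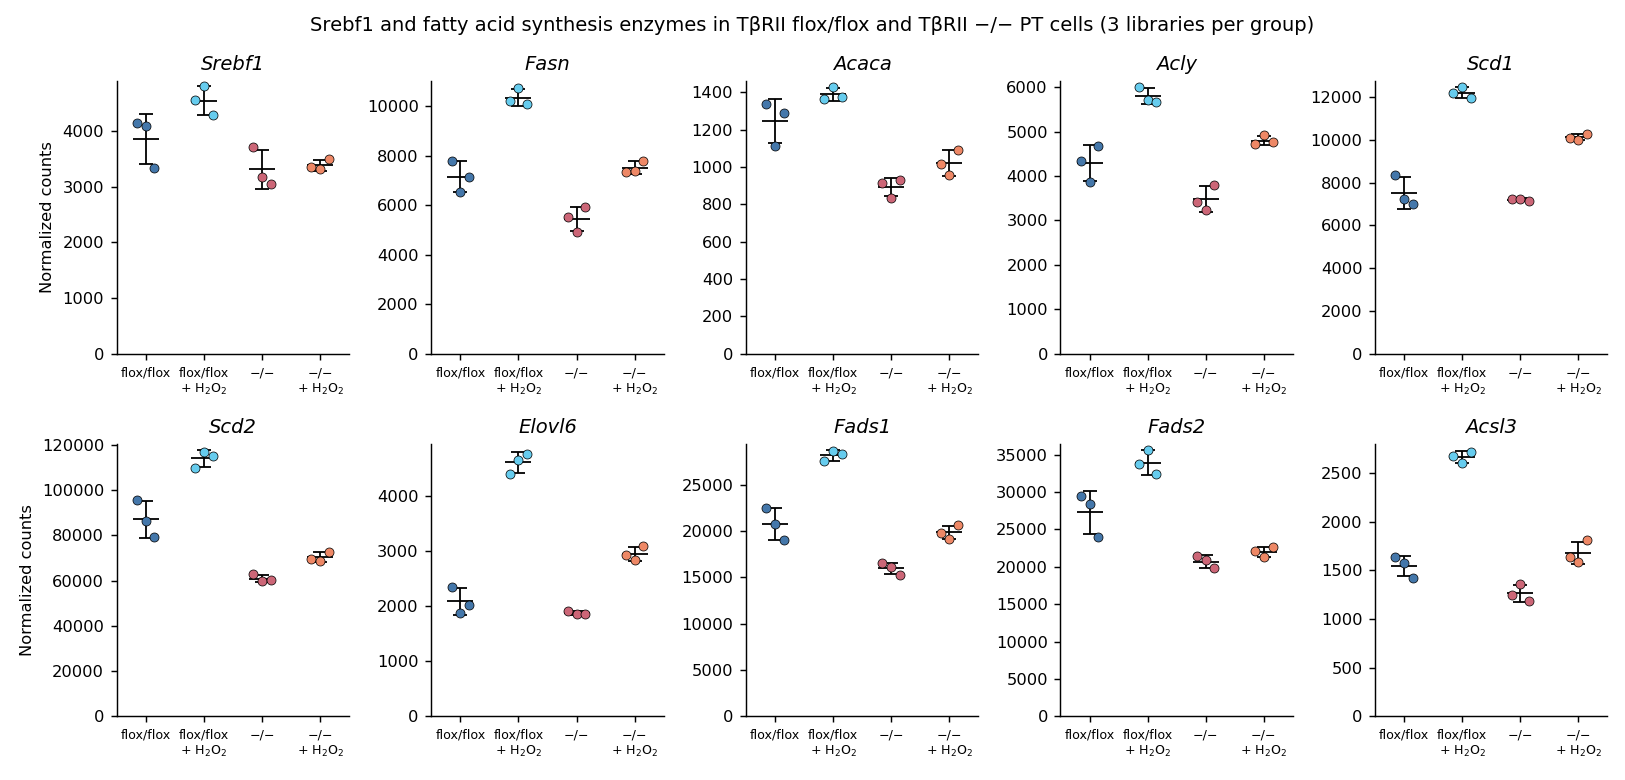
Normalized counts (y axis, from 0) of Srebf1 and the 9 enzyme genes in the 4 groups, with a point for each library and bars for the mean and SD of 3 libraries. The H2O2-treated flox/flox libraries are the highest in all 10 panels, and the untreated flox/flox libraries are spread most widely in most panels.

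**Figure D2:**
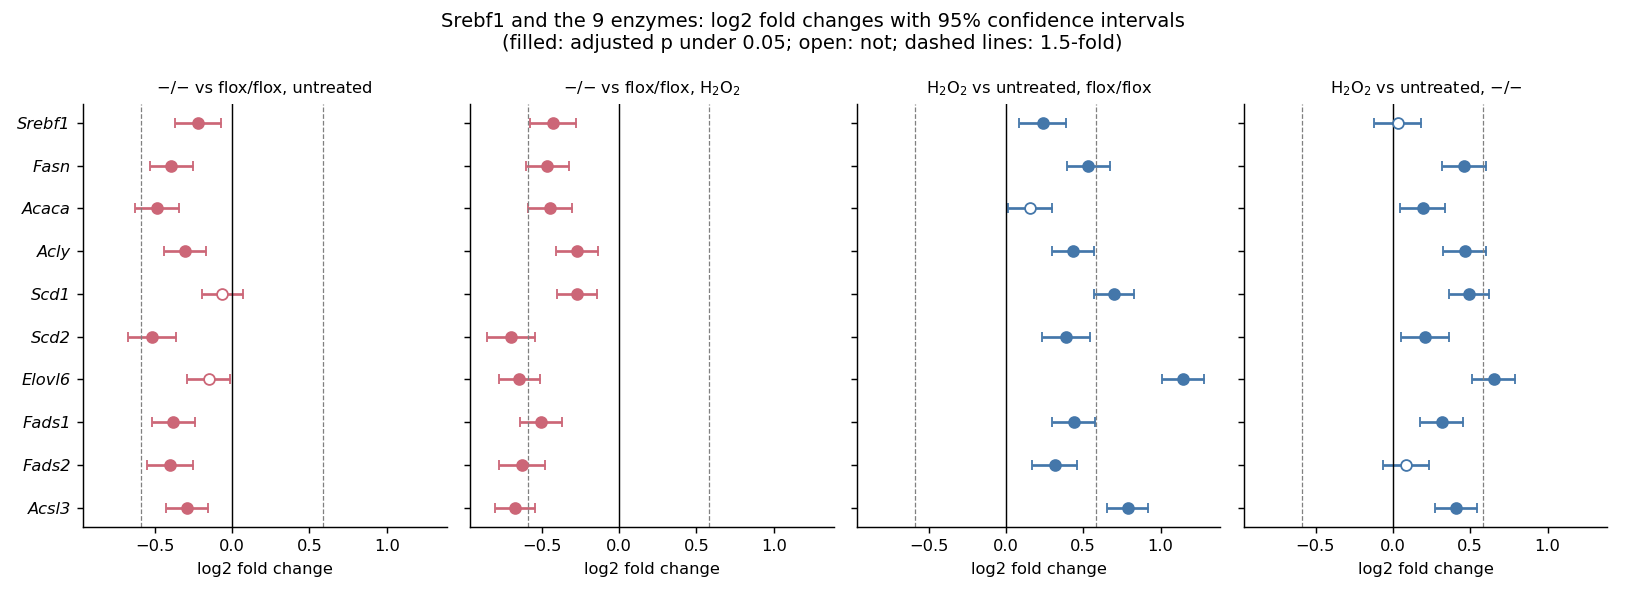
Log2 fold changes (x axis) of the 10 genes with 95% confidence intervals in 4 comparisons. Filled points have an adjusted p under 0.05, and dashed lines mark 1.5-fold. Points lie to the left of 0 in the comparisons of genotypes, between -0.70 and -0.06, and to the right of 0 in those of H2O2, between 0.03 and 1.14.

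Srebf1 (chr11:60199084-60224186; coordinates here are of GRCm38.p6) had 4139, 4093 and 3343.5 normalized counts in replicates 1, 2 and 3 of untreated flox/flox cells and 4559, 4804 and 4283 with H2O2. TβRII-/- cells had 3710.3, 3175.5 and 3054 untreated and 3348, 3311 and 3497 with H2O2. Treated flox/flox libraries stood above all others, while the untreated libraries of the 2 genotypes overlapped. Srebf1 was lower in untreated TβRII-/- cells, with a log2 fold change of -0.22 ± 0.07 (SE, adjusted p = 0.0102, edgeR), and in treated ones, at -0.43 ± 0.07 (adjusted p = 6.74e-06). With H2O2 it rose by 0.24 ± 0.07 in flox/flox cells (adjusted p = 0.00988). In TβRII-/- cells its log2 fold change with H2O2 was 0.03, with a 95% confidence interval from -0.12 to 0.18 and an adjusted p of 0.769. Both changes that involve untreated flox/flox cells depended on single libraries. The genotype difference had an adjusted p of 0.0513 without replicate 1 of these cells and 0.0589 without replicate 2. Leaving out untreated TβRII-/- replicate 2 or 3 gave 0.0520 or 0.0826. The rise with H2O2 had an adjusted p of 0.0857 without replicate 3 of the untreated cells and 0.0611 without replicate 2 of the treated ones. The counts do not separate the SREBP-1a and SREBP-1c transcripts, because a read was counted on every transcript it overlapped.

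Acly (chr11:100476352-100528000), which supplies acetyl-CoA, had 4344, 3858 and 4676 normalized counts in untreated flox/flox cells and 5996, 5720.5 and 5653 with H2O2. The untreated TβRII-/- libraries had 3406, 3228 and 3800.4, and the treated ones had 4709.5, 4914 and 4768. The 4 groups did not overlap, in the order treated flox/flox, treated -/-, untreated flox/flox and untreated -/-. Acly rose with H2O2 in both genotypes, by 0.43 ± 0.07 in flox/flox (adjusted p = 5.08e-06, edgeR) and 0.46 ± 0.07 in TβRII-/- cells (adjusted p = 1.73e-06). It was lower in TβRII-/- cells, at -0.30 ± 0.07 untreated (adjusted p = 0.000228) and -0.27 ± 0.07 with H2O2 (adjusted p = 0.000651).

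Acaca (chr11:84129635-84401651), the gene of the malonyl-CoA-forming carboxylase, had 1337, 1114 and 1293 normalized counts in untreated flox/flox cells and 1367, 1432 and 1374 with H2O2. Its values were 913, 835.5 and 930.5 in untreated and 1016, 955 and 1094 in treated TβRII-/- libraries. Genotype separated its libraries with and without H2O2, and the steps with H2O2 were small. Acaca was lower in TβRII-/- cells, at -0.48 ± 0.07 untreated (adjusted p = 4.18e-07, edgeR) and -0.45 ± 0.07 with H2O2 (adjusted p = 1.01e-06). Its change with H2O2 was 0.16 ± 0.07 in flox/flox cells (adjusted p = 0.0675, 95% confidence interval 0.02 to 0.30), and 0.0155 was the adjusted p without replicate 1 of the untreated cells. It rose by 0.19 ± 0.07 in TβRII-/- cells (adjusted p = 0.0292), which became 0.156 without untreated replicate 2, and 0.0635 and 0.166 without treated replicates 1 and 3. Of the 100-base stretches of the Acaca transcript, 42.8% also occur in transcripts of Gm5182, and how such reads were assigned is not given in the sources used here, so its values are uncertain.

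Fasn (chr11:120805958-120825166), the gene of the synthase itself, had 7790.2, 6526 and 7141 normalized counts in untreated flox/flox cells and 10234, 10734.5 and 10085 with H2O2. TβRII-/- cells had 5516, 4934 and 5915 untreated and 7344, 7384 and 7809 with H2O2. Treated TβRII-/- libraries overlapped untreated flox/flox ones, and no other groups overlapped. Fasn rose 1.45-fold with H2O2 in flox/flox cells (log2 0.53 ± 0.07, adjusted p = 2.32e-07, edgeR) and 1.38-fold in TβRII-/- cells (0.46 ± 0.07, adjusted p = 2.85e-06). It was 1.31-fold lower in untreated TβRII-/- cells (-0.39 ± 0.07, adjusted p = 1.06e-05) and 1.38-fold lower with H2O2 (-0.46 ± 0.07, adjusted p = 5.51e-07).

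Elovl6 (chr3:129532386-129638495), the elongase that takes palmitate to stearate, had the largest change among the 10 genes. It had 2358, 1873 and 2030.4 normalized counts in untreated flox/flox cells and 4402, 4665 and 4774 with H2O2. The untreated TβRII-/- libraries had 1919, 1861 and 1865, and the treated ones had 2933.5, 2836 and 3093. The untreated genotypes overlapped, while the treated ones stood far apart. Elovl6 rose 2.21-fold with H2O2 in flox/flox cells (log2 1.14 ± 0.07, adjusted p = 4.57e-15, edgeR) and 1.57-fold in TβRII-/- cells (0.65 ± 0.07, adjusted p = 3.14e-09). With H2O2 it was 1.56-fold lower in TβRII-/- cells (-0.64 ± 0.07, adjusted p = 2.82e-10). Without treatment its genotype difference was -0.15 ± 0.07 (adjusted p = 0.0530, 95% confidence interval -0.29 to -0.01), with an adjusted p of 0.00592 and 0.0268 without replicates 2 and 3 of untreated flox/flox cells.

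Scd1 and Scd2 both put the first double bond into stearoyl-CoA and lie close together on chromosome 19. Scd1 (chr19:44394450-44407709) had 8375, 7221 and 6996 normalized counts in untreated flox/flox cells and 12210.0, 12483 and 11965 with H2O2. Its values were 7237, 7250.5 and 7155 in untreated and 10091, 10021 and 10309 in treated TβRII-/- libraries. The untreated genotypes overlapped, with a log2 fold change of -0.06 (95% confidence interval -0.19 to 0.07, adjusted p = 0.406, edgeR). With H2O2 Scd1 rose 1.62-fold in flox/flox cells (0.70 ± 0.06, adjusted p = 2.51e-10) and 1.41-fold in TβRII-/- cells (0.49 ± 0.06, adjusted p = 2.89e-07). It was lower in treated TβRII-/- cells, at -0.27 ± 0.06 (adjusted p = 0.000437).

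Scd2 (chr19:44293676-44306864) had 95649, 86422 and 79253.5 normalized counts in untreated flox/flox cells and 109924, 116803 and 115115 with H2O2. TβRII-/- cells had 62730.1, 59615 and 60158 untreated and 69706, 68519.9 and 72715 with H2O2. Unlike Scd1, its treated TβRII-/- libraries stayed below the untreated flox/flox ones, and no groups overlapped. Scd2 was 1.43-fold lower in untreated TβRII-/- cells (-0.52 ± 0.08, adjusted p = 5.77e-07, edgeR) and 1.62-fold lower with H2O2 (-0.70 ± 0.08, adjusted p = 1.66e-09). It rose with H2O2 by 0.39 ± 0.08 in flox/flox cells (adjusted p = 0.000138) and by 0.21 ± 0.08 in TβRII-/- cells (adjusted p = 0.0296). The latter had an adjusted p of 0.104 and 0.0800 without untreated replicates 2 and 3, and of 0.0641 and 0.111 without treated replicates 1 and 3.

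Per kilobase of transcript, Scd2 outnumbered Scd1 between 10.4 and 11.0 times in untreated flox/flox libraries and between 8.29 and 8.86 times with H2O2. The ratio in TβRII-/- cells was between 7.57 and 7.98 untreated and between 6.30 and 6.50 with H2O2. The 4 groups did not overlap. The log2 ratio was lower in TβRII-/- cells, at -0.46 untreated and -0.43 with H2O2, and lower with H2O2, at -0.31 in flox/flox and -0.28 in TβRII-/- cells. Each of these 4 differences had a two-sided exact permutation p of 0.1, and with 4 comparisons adjusted together it stays 0.1, the smallest value that 3 against 3 libraries allow. The related Scd3 had at most 1 count in any library and Scd4 between 2 and 14. Of the 100-base stretches, 2.56% of Scd1 and 0.896% of Scd2 occur in transcripts of other genes, the other Scd genes among them.

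Fads1 and Fads2, the Δ5 and Δ6 desaturases of polyunsaturated fatty acids, are neighbours on chromosome 19. Fads1 (chr19:10182877-10196874) had 22488, 20801 and 19025 normalized counts in untreated flox/flox cells and 27523.5, 28677 and 28279.5 with H2O2. The untreated TβRII-/- libraries had 16522, 16077 and 15300.0, and the treated ones had 19800.0, 19186 and 20623. Treated TβRII-/- libraries overlapped untreated flox/flox ones. Fads1 was lower in TβRII-/- cells, at -0.38 ± 0.07 untreated (adjusted p = 1.20e-05, edgeR) and -0.50 ± 0.07 with H2O2 (adjusted p = 9.18e-08), and it rose with H2O2 by 0.44 ± 0.07 in flox/flox (adjusted p = 4.50e-06) and 0.32 ± 0.07 in TβRII-/- cells (adjusted p = 0.000398).

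Fads2 (chr19:10062765-10101503) had 29452, 28466 and 24021 normalized counts in untreated flox/flox cells and 33774, 35682 and 32426 with H2O2. Its values were 21472, 20853 and 19813 in untreated and 22071, 21281 and 22673 in treated TβRII-/- libraries. Here the untreated and treated TβRII-/- libraries overlapped and lay below every flox/flox library. Fads2 was lower in TβRII-/- cells, at -0.40 ± 0.07 untreated (adjusted p = 1.64e-05, edgeR) and -0.63 ± 0.07, or 1.54-fold, with H2O2 (adjusted p = 5.26e-09). It rose with H2O2 by 0.31 ± 0.07 in flox/flox cells (adjusted p = 0.000794), and in TβRII-/- cells its log2 fold change was 0.09 (95% confidence interval -0.06 to 0.24, adjusted p = 0.357).

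Acsl3 (chr1:78657825-78707743), a long-chain acyl-CoA synthetase of the endoplasmic reticulum and lipid droplets, had 1633, 1575 and 1426 normalized counts in untreated flox/flox cells and 2674, 2600.0 and 2718 with H2O2. TβRII-/- cells had 1244, 1356 and 1188 untreated and 1635, 1587 and 1807 with H2O2. Treated flox/flox libraries stood well above the rest, and treated TβRII-/- libraries overlapped untreated flox/flox ones. Acsl3 rose 1.72-fold with H2O2 in flox/flox cells (log2 0.79 ± 0.06, adjusted p = 1.81e-11, edgeR) and 1.33-fold in TβRII-/- cells (0.41 ± 0.07, adjusted p = 8.80e-06). It was 1.22-fold lower in untreated TβRII-/- cells (-0.29 ± 0.07, adjusted p = 0.000304) and 1.59-fold lower with H2O2 (-0.67 ± 0.06, adjusted p = 6.42e-11). Of its 100-base stretches 8.45% occur in transcripts of Utp14b, which had between 220 and 404 counts.

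Whether the change with H2O2 itself differed between the genotypes was tested as an interaction. Elovl6 and Acsl3 passed, both with a smaller rise in TβRII-/- cells, and 6.28% of all genes passed in that direction. The difference was -0.49 ± 0.09 on the log2 scale for Elovl6 (adjusted p = 0.000683, edgeR) and -0.38 ± 0.09 for Acsl3 (adjusted p = 0.00670). For the other 8 genes the difference did not pass, with confidence intervals from -0.42 to 0.01 for Srebf1, -0.27 to 0.13 for Fasn, -0.16 to 0.24 for Acaca, -0.16 to 0.23 for Acly, -0.39 to -0.02 for Scd1, -0.40 to 0.04 for Scd2, -0.32 to 0.07 for Fads1 and -0.44 to -0.02 for Fads2. The median of the 10 differences was -0.19, against 0.01 over all genes. Replicate 1 of untreated flox/flox cells decided 2 of these calls: without it 4 genes passed, with Scd1 at -0.32 (adjusted p = 0.00802) and Fads2 at -0.31 (adjusted p = 0.0300) added.

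**Figure D3:**
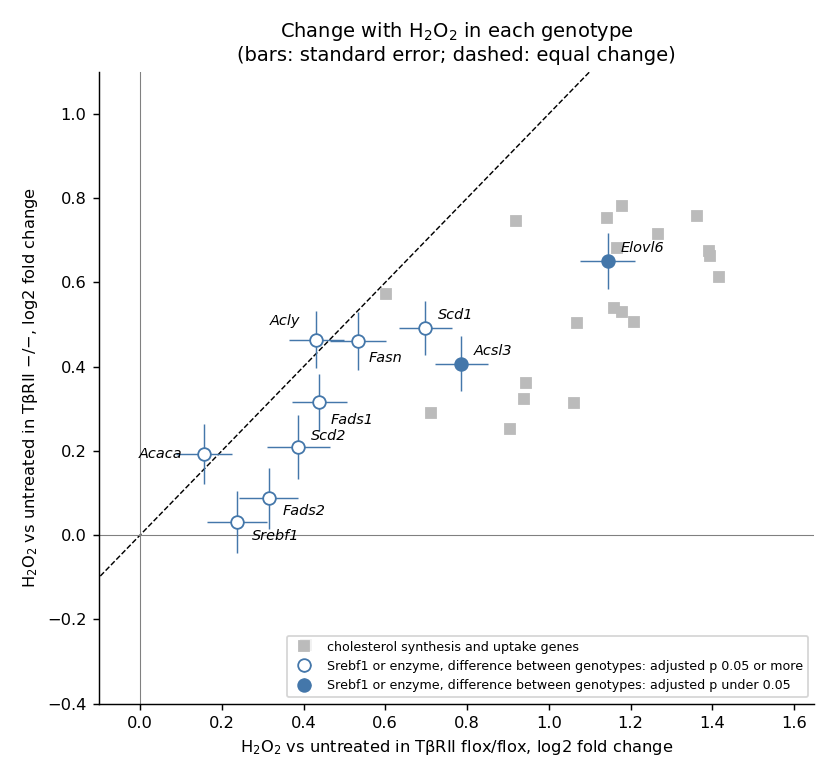
Log2 fold change with H2O2 in flox/flox cells (x axis) against that in TβRII-/- cells (y axis), with SE bars, for the 10 genes (circles) and 20 cholesterol genes (grey squares). Filled circles, Elovl6 and Acsl3, are the genes whose interaction had an adjusted p under 0.05. Acly and Acaca lie just above the dashed line of equal change, and the other 8 genes lie under it.

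The spread among libraries was uneven. Over the 10 genes the coefficient of variation had a median of 9.53% in untreated flox/flox cells, against 3.14% with H2O2, and of 4.85% and 3.30% in untreated and treated TβRII-/- cells. Within untreated flox/flox cells, replicate 1 was the highest library for 9 of the 10 genes, Acly being the exception, and replicate 3 the lowest for 6.

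Levels of different genes were compared per kilobase of transcript. In untreated flox/flox cells Scd2 led with a mean of 15969 normalized counts per kilobase, followed by Fads2 with 8422, Fads1 with 5854, Scd1 with 1499, Acly with 967, Srebf1 with 890 and Fasn with 710. Acsl3 with 391, Elovl6 with 350 and Acaca with 131 came last. The desaturases thus stood above the genes that build palmitate in each group, and Elovl6 stood above Acsl3 with H2O2, at 773 against 674 in flox/flox and 495 against 424 in TβRII-/- cells. Together the 10 genes took between 0.844% and 0.968% of the gene counts in untreated flox/flox libraries and between 1.18% and 1.23% with H2O2. The share in TβRII-/- cells was between 0.703% and 0.739% untreated and between 0.854% and 0.902% with H2O2. Scd2 alone made up between 48.9% and 53.9% of the counts of the 10 genes, so this sum follows Scd2 closely.

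Genes that act around the 10 were taken in 11 lists, which can be read against all genes tested, of which 33.3% were higher in untreated and 35.1% in treated TβRII-/- cells, and 20.5% fell with H2O2 in flox/flox and 19.1% in TβRII-/- cells. Of the 6 genes that carry and cut SREBP, 5 rose with H2O2 in flox/flox cells, with a median log2 fold change of 0.36. Insig1, which retains SREBP in the endoplasmic reticulum and is itself an SREBP target, rose by 1.49 ± 0.07 (adjusted p = 7.75e-18, edgeR), and Srebf2, the gene of SREBP-2, by 0.62 ± 0.07 (adjusted p = 2.70e-08). In TβRII-/- cells 3 of the 6 rose, with Insig1 at 0.85 ± 0.06 (adjusted p = 4.29e-12), and its difference between genotypes was -0.64 ± 0.09 (adjusted p = 1.48e-05). Between untreated genotypes 2 of the 6 were higher and 3 lower in TβRII-/- cells, and with H2O2 5 were lower and 1 higher. Mbtps1, the protease of the first SREBP cut, was lower, at -0.78 ± 0.06 with H2O2 (adjusted p = 1.82e-12).

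The 20 cholesterol synthesis and uptake genes, targets of SREBP-2, all rose with H2O2 in flox/flox cells, with a median of 1.15 against 0.44 for Srebf1 and the enzymes. In TβRII-/- cells 19 rose and 1 fell, with a median of 0.56, and the interaction passed downwards for 18 of the 20. Without treatment 13 of the 20 were higher and 3 lower in TβRII-/- cells, with a median of 0.26, whereas of Srebf1 and the enzymes none was higher and 8 were lower. With H2O2 2 of the 20 were higher and 12 lower.

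Genes that supply acetyl-CoA and NADPH for synthesis were mostly higher in TβRII-/- cells. In untreated TβRII-/- cells 10 of the 11 tested were higher and none lower, with a median of 0.53, and with H2O2 all 11 were higher, with a median of 0.50. G6pdx, the first enzyme of the pentose phosphate pathway, was higher by 0.89 ± 0.07 (adjusted p = 1.77e-13, edgeR), Pgd, the next NADPH-forming enzyme of that pathway, by 0.74 ± 0.06 (adjusted p = 2.54e-13) and Tkt, its transketolase, by 0.70 ± 0.06 (adjusted p = 1.63e-11). With H2O2 3 of the 11 rose and 5 fell in flox/flox cells, and 3 rose and 4 fell in TβRII-/- cells.

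Of 17 other tested genes of fatty acid synthesis, elongation and desaturation, 10 rose and 1 fell with H2O2 in flox/flox cells, and 5 rose and 2 fell in TβRII-/- cells. Between untreated genotypes 5 were higher and 6 lower in TβRII-/- cells, with a median of 0.02. Fads6 was higher by 3.29 ± 0.24 (adjusted p = 1.41e-13, edgeR), the elongase Elovl4 of very long chains by 1.49 ± 0.19 (adjusted p = 4.73e-08) and the dehydratase Hacd1 by 1.25 ± 0.35 (adjusted p = 0.00270), while Fads3, beside Fads1 and Fads2 on chromosome 19, was lower, at -0.74 ± 0.07 (adjusted p = 5.26e-11). With H2O2 5 were higher and 9 lower, and the interaction passed downwards for 6 of the 17 and upwards for none.

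Among 8 other acyl-CoA synthetases 4 rose and none fell with H2O2 in flox/flox cells, and 2 rose and 1 fell in TβRII-/- cells. Without treatment 5 were higher and 2 lower in TβRII-/- cells, where Acsl3 was lower. Acsbg1 was higher by 2.35 ± 0.25 (adjusted p = 9.63e-10, edgeR) and Acsl5 by 0.93 ± 0.06 (adjusted p = 1.05e-14). Of 13 genes of glycerolipid synthesis 7 rose and 2 fell with H2O2 in flox/flox cells, and 3 rose and 2 fell in TβRII-/- cells. Without treatment 6 were higher and 1 lower in TβRII-/- cells, among them Lpin3, a phosphatidate phosphatase, higher by 3.38 ± 0.16 (adjusted p = 1.28e-18). Of 9 genes of lipid droplets and lipolysis 5 were higher and 1 lower, the latter being Plin2, a coat protein of lipid droplets, at -1.34 ± 0.07 (adjusted p = 1.54e-17). Of these 9, 3 rose and 1 fell with H2O2 in flox/flox cells, and 4 rose and 2 fell in TβRII-/- cells.

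**Figure D4:**
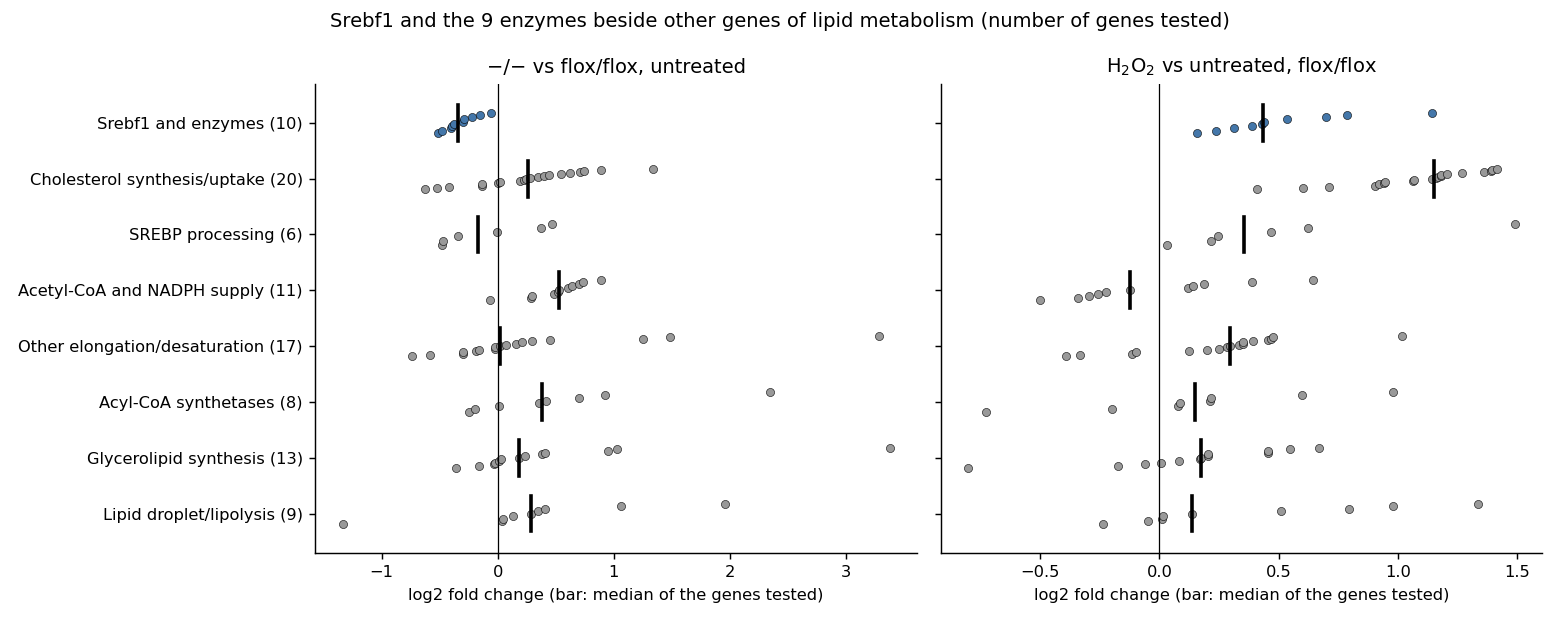
Log2 fold changes (x axis) of Srebf1 and the 9 enzymes (blue) and of 7 lists of other lipid genes (grey), with a point for each gene and a bar at each median, for untreated genotypes (left) and for H2O2 in flox/flox cells (right). On the left Srebf1 and the enzymes lie between -0.52 and -0.06 with a median of -0.34, while the supply genes have a median of 0.53, and on the right the cholesterol genes have a median of 1.15.

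Of 10 tested regulators of lipid synthesis other than SREBP, 1 rose and none fell with H2O2 in flox/flox cells, and 2 rose and none fell in TβRII-/- cells. Between untreated genotypes 6 of the 10 were higher and 2 lower in TβRII-/- cells. Mlxipl, the gene of the carbohydrate-responsive factor ChREBP, had 2 counts in each untreated flox/flox library and 83, 116 and 126 in the untreated TβRII-/- ones. Rxra, the partner of LXR, was higher by 1.24 ± 0.07 (adjusted p = 5.15e-17, edgeR). Pparg had at most 15 counts in any library. Of 5 tested LXR targets other than Srebf1, 1 rose and 1 fell with H2O2 in flox/flox cells, the latter being the cholesterol exporter Abca1 at -1.82 ± 0.09 (adjusted p = 1.39e-16). In TβRII-/- cells 2 of these 5 rose and 1 fell, with Abca1 at -1.18 ± 0.08 (adjusted p = 7.56e-13). Abcg1 was the LXR target that was higher in untreated TβRII-/- cells, by 2.58 ± 0.29 (adjusted p = 2.11e-09). With H2O2 3 of these 5 were higher and none lower in TβRII-/- cells, with a median of 0.65. The interaction passed upwards for 2 of them and downwards for none. Of 3 tested genes of fatty acid uptake and binding, 1 rose and 1 fell with H2O2 in each genotype. Lipoprotein lipase (Lpl) and the VLDL receptor (Vldlr) were higher in untreated TβRII-/- cells, by 3.57 ± 0.29 (adjusted p = 1.31e-12) and 2.80 ± 0.07 (adjusted p = 1.72e-26), and the fatty acid binding protein Fabp5 was lower, at -1.05 ± 0.07 (adjusted p = 5.76e-15). Of 10 upstream insulin and AMPK genes 2 were higher and 5 lower in untreated TβRII-/- cells, and 2 rose and 3 fell with H2O2 in flox/flox cells.

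The 5 protein-coding genes with the pattern most like that of Srebf1, by Pearson correlation of log2 CPM over the 12 libraries, were Dgcr2, Sil1, Chpf, Gm20518 and Erbb2, each with an r of 0.97, among 12586 genes compared. The 12 libraries fall into 4 groups and share these differences. The 9 enzymes were left out of the genes compared, so they could not be among the 5. Fads2 had the highest correlation with Srebf1 among the 9 enzymes, at 0.96, and Acly the lowest, at 0.59.

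Genes beside each of the 10 were read to place the changes in their region. The medians of neighbours and of chromosomes are given here less the median over all genes, which was 0.01. The median log2 fold change between untreated genotypes over up to 24 tested neighbours, 12 on each side, was 0.20 around Scd1 and 0.24 around Scd2, where the whole of chromosome 19 had a median of 0.12. Around Fads1 and Fads2 on the same chromosome it was -0.19 and -0.15. It was -0.15 around Srebf1, -0.14 around Acaca and -0.14 around Acly on chromosome 11, where Fasn had -0.02 and the chromosome -0.05. Elovl6 on chromosome 3 had -0.08 and Acsl3 on chromosome 1 had -0.11. Scd2 was thus lower in TβRII-/- cells than its neighbours by the widest margin of the 10 genes.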

How the data were processed

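RNA from 12 libraries of PT cells was sequenced, 3 in each of 4 groups. The authors trimmed reads with fastp, aligned them with STAR to GRCm38.p6 with the M23 annotation of GENCODE, and used featureCounts. What they deposited are raw whole-number counts for each transcript, in which a read is counted on every transcript it overlaps. The tests had been designed for gene counts. By identifier, 104820 of 106332 transcripts matched GENCODE M39, and the transcript with the highest total stood for each of 25514 genes.

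The tests were run with edgeR 4.0.16 in R 4.3.3 (TMM, filterByExpr, glmQLFit and glmQLFTest) in 1 model of all 12 libraries, and p values were adjusted over 12971 genes by Benjamini-Hochberg. The limits of p under 0.01 and 1.5-fold follow the study. Standard errors and 95% confidence intervals come from the same test. Counts per library, between 15870155 and 20857618, set the counting error. No pair of replicates was a duplicate, with a chi-square per gene between 3.64 and 12.7. The main tests did not pair samples by replicate number, because the labels do not say what the numbers stand for. The genes, which no threshold on values selected, and the lists were chosen with earlier results of these data known. Up to 3 genes per list and direction are named, those with the largest change among genes with an adjusted p under 0.05 and 1.5-fold. For some lists and directions fewer genes than passed these limits, or none, are named. Alternatives were DESeq2 1.42.0, its size factors, other filters, sums over transcripts, the second transcript, only the groups compared, a replicate block and each library left out. DESeq2 on sums was added after the data had been seen. Scripts were tested on simulated data. Permutation tests used SciPy 1.17.1.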

Additional observations from a re-analysis of the deposited data

Results flagged for a closer look

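Elovl6 and Acsl3 stood out among the 10 genes because their change with H2O2 differed between the genotypes by a test of the difference itself. Of all genes 6.28% passed this test downwards. So did 18 of the 20 cholesterol genes, with a median difference of -0.61 over the 20. The interaction was -0.49 ± 0.09 (SE) on the log2 scale for Elovl6 and -0.38 ± 0.09 for Acsl3, with adjusted p of 0.000683 and 0.00670 in edgeR's quasi-likelihood test. Elovl6 was higher with H2O2 in 3 of 3 libraries of both genotypes, by 1.14 in TβRII flox/flox and 0.65 in TβRII-/- cells. Acsl3 was likewise higher in 3 of 3, by 0.79 and 0.41. Over all alternatives the difference lay between -0.62 and -0.45 for Elovl6 and between -0.45 and -0.32 for Acsl3, with adjusted p of at most 0.00436 and 0.0361. H2O2 cannot be told apart from serum withdrawal, nor the deletion from other differences between the cells of the genotypes.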

How the results depend on the processing

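Each of 50 values, the 10 genes in 5 comparisons, was recomputed under 15 or 20 alternatives, 800 in all. In 779 of them the call was as reported, while 14 lost and 7 gained a call. No called value changed sign, whereas 12 values without a call did, and these are counted among the 779. Of the 50, 42 kept their call throughout. Leaving out a library made 18 of the 21 changes, with the adjusted p given beside each gene. The other 3 were an adjusted p of 0.0384 for Elovl6 between untreated genotypes without a filter, 0.0470 for Acaca with H2O2 in flox/flox cells with at least 10 counts in every library, and 0.0557 for Acaca with H2O2 in TβRII-/- cells on sums over transcripts. Between 2 and 4 genes passed the interaction and between 0 and 1 passed the 1.5-fold limits between untreated genotypes when a library was left out, the latter without replicate 3 of untreated flox/flox cells. Over all genes, 1321 passed the interaction. The number was 1680 without replicate 1 of untreated flox/flox cells, and 833 and 878 without replicates 1 and 2 of treated TβRII-/- cells. The causes were not tested.

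With the replicate number as a block, 8, 10, 9 and 8 of the 10 genes passed in the 4 comparisons and 2 in the interaction, as without it. Same-numbered libraries correlated between -0.10 and 0.06 in their deviations from group means, and differently numbered ones between -0.12 and 0.12. The labels do not say what the numbers stand for, so whether they pair samples is not known. With 3 libraries a group, changes well under 1.5-fold sat near the threshold between untreated genotypes for Srebf1 and Elovl6. With H2O2 the same held for Srebf1 in flox/flox cells, Acaca in both genotypes and Scd2 in TβRII-/- cells. In the interaction it held for Scd1 and Fads2.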
